A study of Mus musculus with 24 samples.

Results

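The protocadherins are the largest group of cadherin-like adhesion proteins in the brain, and their transcripts were measured here in the hypothalamus of a hypertensive and a normotensive mouse strain. Members were all genes whose symbol begins with Pcdh followed by a digit or by a, b or g, on probe sets that the array annotation assigns to 1 gene. That gave 34 of 19937 measured genes, made up of 22 clustered beta genes, Pcdhb1 to Pcdhb22, and 12 non-clustered genes. No gene of the alpha or gamma cluster had a probe set of its own: 1 probe set carried 14 alpha symbols together, and 0 named probe sets carried a gamma symbol. Where a gene had more than 1 probe set, which held for Pcdh9 and Pcdh15, the one with the highest mean over the 24 arrays was used, so that mean chose the probe set and is not a result.

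The hypothalami came from males of BPH/2J, an inbred line whose blood pressure is high, and of BPN/3J, the normotensive line it is compared with. The 4 groups were BPH/2J at 26 weeks, BPN/3J at 26 weeks, BPH/2J at 6 weeks and BPN/3J at 6 weeks of age, with 6 mice and 6 arrays in each and no pooling. All mice had standard animal house treatment, and tissue was taken when blood pressure is highest in the daily cycle. Values were log2 values from Affymetrix Mouse Gene 1.0 ST arrays after RMA, so a difference is a log2 ratio of signals, relative to the rest of the array. The 2 inbred strains differ across the genome, so a strain difference here belongs to the strains as a whole and not to blood pressure alone. In tissue RNA, fewer cells of a type and less RNA per cell cannot be told apart.

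Clustered protocadherins are encoded side by side on chromosome 18 in the alpha, beta and gamma clusters. Each neuron is known to use a small and largely random choice of their promoters, bound by CTCF and looped by cohesin, so that its surface carries its own mix of isoforms. These isoforms bind only like isoforms on another membrane, which lets a neurite recognise and avoid its sister branches. Each beta gene is a single exon coding for a complete protein, whereas alpha and gamma first exons are spliced to shared constant exons. The non-clustered protocadherins are scattered over the genome, are expressed in region-specific patterns, and are grouped as delta-1 (Pcdh1, Pcdh7, Pcdh9 and Pcdh11x), delta-2 (Pcdh8, Pcdh10, Pcdh17, Pcdh18 and Pcdh19) and others (Pcdh12, Pcdh15 and Pcdh20).

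Defining genes of the hypothalamus were present on every array, among them Pmch, which encodes melanin-concentrating hormone, at 11.31 to 12.73, and all 11 measured genes of that list lay above the median of the unnamed probe sets on each array. Genes that mark the thalamus were also present, and their amount differed in 1 group. This list and the other marker lists were chosen with earlier results of these data known. The mean of the 16 thalamus markers was 7.47 to 9.16 (median 8.21) in 6-week BPH/2J mice, against 9.14 to 9.51 (median 9.19) in 6-week BPN/3J mice, while it was 9.21 to 9.40 (median 9.27) and 8.68 to 9.47 (median 9.38) in BPH/2J and BPN/3J mice at 26 weeks. The 26-week arrays of replicates 5 and 6 of both strains stood apart from the other arrays on the first principal component of the deviations from group means, which held 29.2% of the variance. What set these 4 arrays apart is not given in the sources used here. Array 6 of the 26-week BPN/3J mice also had a median over unnamed probe sets of 5.25, against 4.60 to 4.85 on the other arrays.

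The first question was whether the beta cluster differs between hypertensive and normotensive mice. At 26 weeks it was largely lower in BPH/2J: 11 of the 22 beta genes were lower and 1 was higher, at an adjusted p below 0.05 from limma fitted to all 19937 genes, of which 2.67% were called (1.34% lower and 1.32% higher). At 6 weeks 7 beta genes were lower and 1 higher, where 7.42% of all genes were called (4.42% lower and 2.99% higher). The median difference between BPH/2J and BPN/3J over the 22 beta genes was -0.42 log2 units at 26 weeks and -0.21 at 6 weeks, against 0.01 over all genes at both ages. The difference was negative for 20 of the 22 genes at 26 weeks and for 19 at 6 weeks.

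All 8 beta genes called at 6 weeks were called again in the same direction at 26 weeks: Pcdhb2, Pcdhb3, Pcdhb5, Pcdhb6, Pcdhb7, Pcdhb8 and Pcdhb21 were lower and Pcdhb9 was higher in BPH/2J. Of all genes, 0.813% were lower at both ages and 0.722% were higher at both ages. Pcdhb4, Pcdhb11, Pcdhb18 and Pcdhb22 were called lower at 26 weeks only. No test of the change in the strain difference between the ages passed for a beta gene, so the longer list at 26 weeks is not shown to be a change with age. The groups of the strains did not overlap for 8 lower and 1 higher beta gene at 26 weeks (0.883% and 0.863% of all genes) and for 7 lower beta genes at 6 weeks (2.78% of all genes).

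Pcdhb6 showed the largest strain difference of the cluster at both ages. At 26 weeks it read 6.02 to 6.36 (median 6.09) in BPH/2J mice, against 7.06 to 7.81 (median 7.47) in BPN/3J mice. At 6 weeks it read 5.71 to 6.19 (median 6.01) in BPH/2J mice, against 6.88 to 7.12 (median 6.99) in BPN/3J mice. Every BPH/2J array lay below every BPN/3J array at each age. The difference was -1.28 ± 0.10 log2 units (SE, n = 6 per group), a signal 2.43-fold lower in BPH/2J, at 26 weeks (limma, adjusted p = 2.02e-09) and -1.01 ± 0.10 at 6 weeks (adjusted p = 1.79e-07).

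Pcdhb9 moved the other way from its neighbours in the cluster. It read 5.89 to 6.69 (median 6.42) in 26-week BPH/2J mice, against 5.21 to 5.78 (median 5.49) in 26-week BPN/3J mice, and the groups did not overlap. At 6 weeks it read 5.25 to 5.80 (median 5.55) in BPH/2J mice, against 4.61 to 5.25 (median 5.00) in BPN/3J mice, with the lowest BPH/2J array just under the highest BPN/3J array. The gene was dim in young BPN/3J mice, where 1 array lay at or below its median of unnamed probe sets. The difference was 0.84 ± 0.13 at 26 weeks (adjusted p = 0.000132) and 0.56 ± 0.13 at 6 weeks (adjusted p = 0.00682), or at least 0.54 at 6 weeks with that array raised to its median.

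Pcdhb5 and Pcdhb8 were lower in BPH/2J without overlap at both ages. Pcdhb5 read 6.05 to 6.41 (median 6.30) against 6.52 to 7.03 (median 6.78) in BPH/2J and BPN/3J mice at 26 weeks, and 5.97 to 6.27 (median 6.15) against 6.43 to 6.55 (median 6.54) in BPH/2J and BPN/3J mice at 6 weeks. Its difference was -0.52 ± 0.07 at 26 weeks (adjusted p = 5.36e-05) and -0.39 ± 0.07 at 6 weeks (adjusted p = 0.00133). The spread between arrays of this gene was smallest in the young BPN/3J mice (SD 0.05, n = 6). Pcdhb8 read 6.28 to 6.94 (median 6.67) in 26-week BPH/2J mice, against 6.95 to 7.66 (median 7.22) in 26-week BPN/3J mice, where the highest BPH/2J array lay just under the lowest BPN/3J array. At 6 weeks it read 6.47 to 6.72 (median 6.53) in BPH/2J mice, against 6.84 to 7.04 (median 6.92) in BPN/3J mice. Its difference was -0.62 ± 0.11 at 26 weeks (adjusted p = 0.000792) and -0.38 ± 0.11 at 6 weeks (adjusted p = 0.0331). The 6-week call of Pcdhb8 was lost when any of 6 single arrays was left out, BPH/2J replicates 1, 3 and 5 and BPN/3J replicates 2, 3 and 5 (adjusted p 0.0599 to 0.0759).

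Pcdhb2, Pcdhb3 and Pcdhb21 differed by similar amounts at both ages. Pcdhb2 read 6.97 to 7.56 (median 7.26) against 7.63 to 8.14 (median 7.96) in BPH/2J and BPN/3J mice at 26 weeks, and 6.05 to 6.97 (median 6.80) against 7.07 to 7.41 (median 7.35) in BPH/2J and BPN/3J mice at 6 weeks. Pcdhb3 read 7.27 to 7.73 (median 7.56) against 7.78 to 8.26 (median 7.92) in BPH/2J and BPN/3J mice at 26 weeks, and 6.60 to 7.30 (median 7.03) against 7.35 to 7.74 (median 7.51) at 6 weeks, in the same order. Pcdhb21 read 6.23 to 6.46 (median 6.36) against 6.78 to 7.24 (median 6.91) in BPH/2J and BPN/3J mice at 26 weeks, and 5.49 to 6.27 (median 6.08) against 6.33 to 6.81 (median 6.51) at 6 weeks, in the same order. None of these 3 genes had overlapping strains at either age. Pcdhb2 differed by -0.66 ± 0.13 at 26 weeks (adjusted p = 0.00194) and by -0.64 ± 0.13 at 6 weeks (adjusted p = 0.00154). Pcdhb3 differed by -0.48 ± 0.10 (adjusted p = 0.00721) and -0.52 ± 0.10 (adjusted p = 0.00183) at the same ages. Pcdhb21 differed by -0.62 ± 0.11 (adjusted p = 0.000632) and -0.56 ± 0.11 (adjusted p = 0.00129). The BPH/2J mice of 26 weeks and the BPN/3J mice of 6 weeks had similar medians for Pcdhb2 and Pcdhb3.

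Pcdhb7 and Pcdhb4 complete the genes named at either age. Pcdhb7 read 7.14 to 7.79 (median 7.57) against 7.59 to 8.24 (median 8.12) in BPH/2J and BPN/3J mice at 26 weeks, with overlap, and 7.07 to 7.36 (median 7.16) against 7.51 to 7.67 (median 7.57) at 6 weeks, in the same order and without overlap. Its difference was -0.48 ± 0.11 at 26 weeks (adjusted p = 0.00855) and -0.39 ± 0.11 at 6 weeks (adjusted p = 0.0193), and the second call was lost without BPH/2J replicate 3 (adjusted p = 0.0527). Pcdhb4 read 6.52 to 6.71 (median 6.62) in 26-week BPH/2J mice, against 6.86 to 7.18 (median 7.09) in 26-week BPN/3J mice. Pcdhb4 differed by -0.44 ± 0.09 at 26 weeks (adjusted p = 0.00369), whereas its 6-week difference of -0.22 ± 0.09 was not called (adjusted p = 0.147). Among the remaining genes called at 26 weeks, Pcdhb11 differed by -0.57 ± 0.12, Pcdhb18 by -0.45 ± 0.12 and Pcdhb22 by -0.35 ± 0.10 (adjusted p = 0.00868, 0.0411 and 0.0484 in that order). The calls of Pcdhb18 and Pcdhb22 lay close to the threshold and were easily lost. Leaving out any of 8 single arrays ended the call of Pcdhb18, namely BPH/2J replicates 1, 5 and 6 and BPN/3J replicates 2, 4 and 6 at 26 weeks and BPN/3J replicates 3 and 6 at 6 weeks (adjusted p 0.0511 to 0.117). For Pcdhb22 it was ended by any of 19 of the 24 arrays (adjusted p 0.0518 to 0.133).

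**Figure D1:**
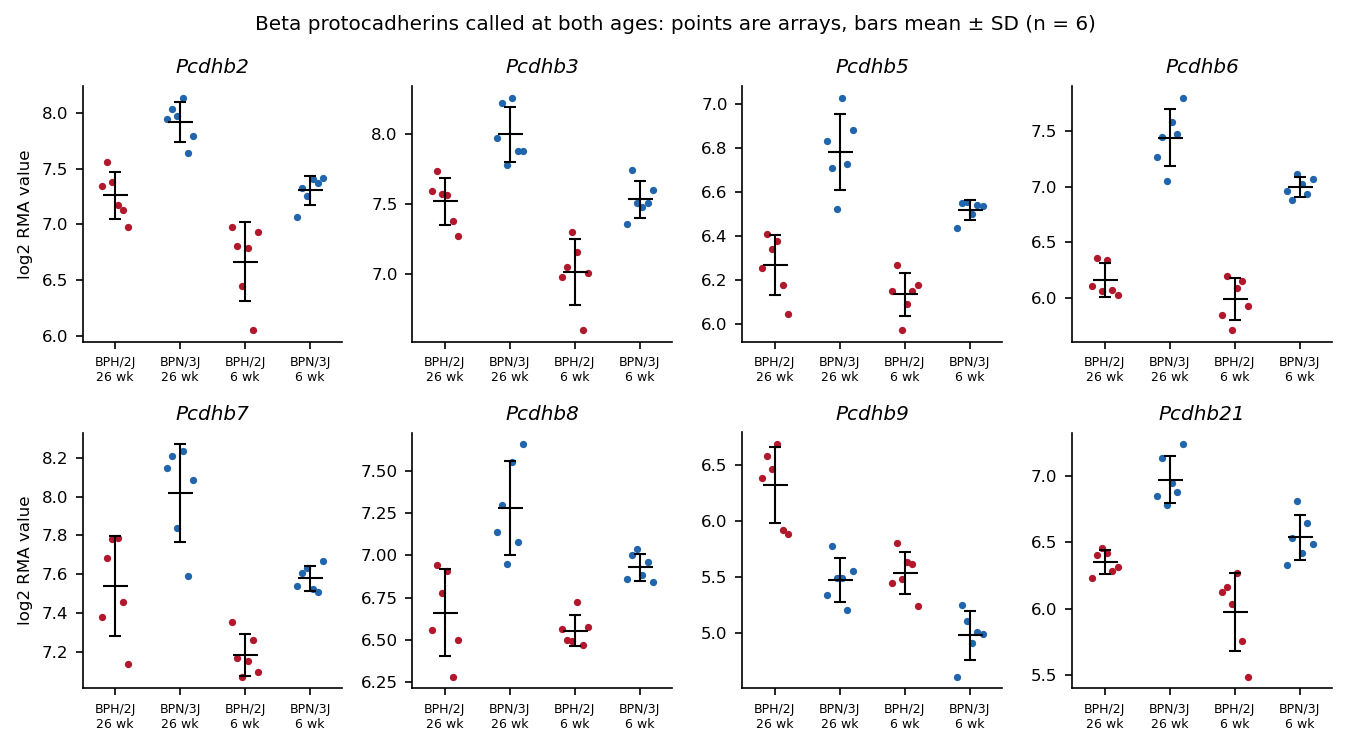
RMA values (log2, vertical axes) of the 8 beta protocadherins called for strain at both ages, by group, with 1 point per array and bars for the mean and SD of 6 arrays. Points of BPH/2J mice lie below those of BPN/3J mice of the same age in 7 panels and above them for Pcdhb9, with overlap only for Pcdhb7 at 26 weeks and Pcdhb9 at 6 weeks.

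Beta genes that did not pass at 26 weeks, with their differences, were Pcdhb17 (-0.42), Pcdhb16 (-0.41), Pcdhb20 (-0.31), Pcdhb19 (-0.31), Pcdhb15 (-0.21), Pcdhb14 (-0.21), Pcdhb10 (-0.10), Pcdhb13 (-0.05), Pcdhb1 (-0.03) and Pcdhb12 (0.03). At 6 weeks those that did not pass were Pcdhb17 (-0.30), Pcdhb22 (-0.30), Pcdhb16 (-0.23), Pcdhb4 (-0.22), Pcdhb11 (-0.20), Pcdhb19 (-0.20), Pcdhb15 (-0.14), Pcdhb20 (-0.13), Pcdhb14 (-0.09), Pcdhb18 (-0.07), Pcdhb10 (-0.03), Pcdhb13 (-0.02), Pcdhb1 (0.14) and Pcdhb12 (0.19). Pcdhb1 was the dimmest of its kind relative to background: 2 or 3 of its 6 arrays in each group lay at or below their median of unnamed probe sets, so a strain difference in it was hardly measurable. Beta genes are close paralogs, and signal shared between their probe sets was not tested. A base difference between the strains under a probe and a difference in RNA cannot be told apart on these arrays, which bears most on single genes such as Pcdhb6 and Pcdhb9.

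Strain differences were unevenly placed along the cluster. The first 8 genes in cluster order, Pcdhb1 to Pcdhb8, held 7 lower calls at 26 weeks and 6 at 6 weeks, with median differences of -0.50 and -0.39. The other 14, Pcdhb9 to Pcdhb22, held 4 lower calls and 1 higher call at 26 weeks and 1 lower and 1 higher call at 6 weeks, with medians of -0.31 and -0.13. This split was chosen after the values were seen and was not tested. The strain differences of the 22 genes at 26 weeks and at 6 weeks, which share no arrays, had Pearson's r = 0.939 and Spearman's rho = 0.898 and the same sign for 21 genes, a description across genes that are not independent. The same description over the 12 non-clustered genes gave r = 0.329, rho = 0.308 and the same sign for 9 genes.

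**Figure D2:**
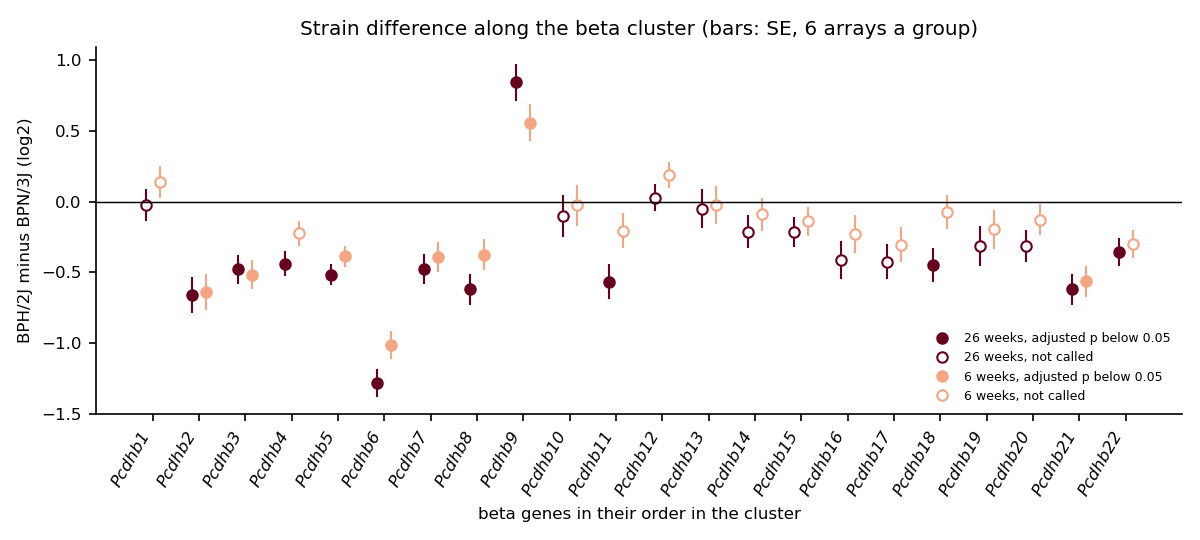
Strain difference (BPH/2J minus BPN/3J, log2, vertical axis) of each beta protocadherin in cluster order at 26 and at 6 weeks, with bars for the SE of the limma fit (6 arrays per group) and filled points for an adjusted p below 0.05. Most points lie below 0, Pcdhb6 lies lowest at -1.28 and -1.01, and Pcdhb9 stands above 0 at both ages.

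The strain result of the cluster was read again beside the thalamus markers and the arrays that stood apart. At 6 weeks all 16 thalamus markers were lower in BPH/2J (median difference -1.05), where 7.42% of all genes were called. The list was chosen with earlier results of these data known, so this count and the covariate made from it are not independent evidence on tissue. With the mean of these markers per array as a covariate 1 beta gene was called, Pcdhb6 (-0.80, limma adjusted p = 0.00372). In that fit 0.792% of all genes were called and the beta median was -0.06. Several beta genes kept a difference of similar or larger size and lost the call: with the covariate Pcdhb2 differed by -0.60, Pcdhb3 by -0.56, Pcdhb21 by -0.56 and Pcdhb9 by 0.78 (adjusted p = 0.242, 0.131, 0.166 and 0.0525 in that order). Pcdhb5, Pcdhb7 and Pcdhb8 differed by -0.25, -0.29 and -0.33. Of 9 oligodendrocyte markers, 5 were also lower in BPH/2J at 6 weeks and 0 at 26 weeks. At 6 weeks 3 of 5 cortex markers and 2 of 6 neuron markers were lower and 0 were higher (medians -0.56 and -0.15). At 26 weeks 0 of these were called. Of 11 hypothalamus markers, 6 were higher in BPH/2J at 6 weeks and 2 at 26 weeks, and 0 were lower (medians 0.70 and 0.41). The part of these lists in the beta result was not tested. At 26 weeks, when 1 of the 16 thalamus markers was lower and their list mean overlapped between the strains, the same covariate kept all 12 beta calls. Without the 26-week arrays 5 and 6, 7 beta genes were lower and 1 was higher at 26 weeks. For this setting and for the covariate at 26 weeks the share of all genes called is not given here. That share moves between settings, so these 2 counts cannot be set against it. With only those 2 arrays of each strain, 4 beta genes were lower at 26 weeks (1.12% of all genes called) and the median difference was -0.55. The beta mean was 6.41 on both of these BPH/2J arrays, against 6.69 and 7.21 on BPN/3J replicates 5 and 6. The last of these is the array whose median over unnamed probe sets was 5.25. Pcdhb6 was lower in BPH/2J in each of these settings at 26 weeks, by 1.13 log2 units in arrays 1 to 4 (adjusted p = 9.73e-07) and by 1.60 in arrays 5 and 6 (adjusted p = 4.90e-06).

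The second question was how the cluster differs between adult and young mice of 1 strain. Beta genes were higher at 26 than at 6 weeks: all 22 differences were positive in both strains, 9 passed in BPH/2J and 17 passed in BPN/3J, and 0 were lower. Among all genes 16.9% were called with age in BPH/2J (8.23% higher and 8.64% lower) and 12.3% in BPN/3J (4.60% higher and 7.66% lower). The median difference of the beta genes was 0.27 in BPH/2J and 0.44 in BPN/3J, against -0.03 over all genes in each strain. The 9 genes called in BPH/2J, namely Pcdhb2, Pcdhb3, Pcdhb4, Pcdhb7, Pcdhb9, Pcdhb13, Pcdhb14, Pcdhb20 and Pcdhb21, were all called in BPN/3J too, where 1.79% of all genes were higher in both strains. The 8 called in BPN/3J only were Pcdhb5, Pcdhb6, Pcdhb8, Pcdhb11, Pcdhb12, Pcdhb16, Pcdhb17 and Pcdhb18.

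In BPH/2J mice the smallest p for age belonged to Pcdhb9, whose 26-week arrays at 5.89 to 6.69 all lay above its 6-week arrays at 5.25 to 5.80 (0.78 ± 0.13, adjusted p = 0.000396). Pcdhb3 was higher by 0.50 ± 0.10 (adjusted p = 0.00198), with 26-week arrays at 7.27 to 7.73 and 6-week arrays at 6.60 to 7.30, where 1 young array reached into the adult range. Pcdhb2 was higher by 0.59 ± 0.13 (adjusted p = 0.00246), and its lowest adult array and highest young array were almost level at 6.97. The fourth named gene was Pcdhb20, which read 6.79 to 7.27 (median 7.13) at 26 weeks and 6.32 to 6.72 (median 6.66) at 6 weeks in BPH/2J mice without overlap. It differed by 0.45 ± 0.11 (adjusted p = 0.00675). Groups of the 2 ages did not overlap for 3 beta genes in BPH/2J (1.47% of all genes) and for 6 in BPN/3J (1.25%), each time with the adult mice higher. In BPH/2J the age call of Pcdhb4 was lost without any of 6 single arrays (replicates 1, 2 and 4 at 26 weeks and 1, 3 and 5 at 6 weeks), that of Pcdhb7 without any of 4 (replicates 2, 3 and 4 at 26 weeks and 3 at 6 weeks), and that of Pcdhb21 without replicate 6 at 6 weeks (adjusted p 0.0522 to 0.0939 over these).

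In BPN/3J mice Pcdhb20 again stood out. It read 6.79 to 7.60 (median 7.49) at 26 weeks and 6.60 to 6.93 (median 6.74) at 6 weeks, with 1 adult array, replicate 5, far below the other adult arrays at 6.79. Its difference was 0.64 ± 0.11 (adjusted p = 0.00163). Pcdhb4 was higher without overlap, at 6.86 to 7.18 at 26 weeks and 6.41 to 6.84 at 6 weeks (0.50 ± 0.09, adjusted p = 0.00229). The same held for Pcdhb2, which differed by 0.61 ± 0.13 (adjusted p = 0.00545), and for Pcdhb14. Pcdhb14 read 5.68 to 6.32 (median 6.07) in 26-week BPN/3J mice, against 5.34 to 5.63 (median 5.54) in 6-week BPN/3J mice, a difference of 0.55 ± 0.12 (adjusted p = 0.00663). Some calls in BPN/3J rested on single BPN/3J arrays. That of Pcdhb8 was lost without any of 9 (replicates 2, 4 and 6 at 26 weeks and all 6 at 6 weeks) and that of Pcdhb17 without any of 5 (replicates 2, 4 and 6 at 26 weeks and 1 and 4 at 6 weeks). Those of Pcdhb5, Pcdhb9 and Pcdhb11 were lost without replicate 1 at 6 weeks and also without 1 or 2 of the 26-week arrays (1 and 4, 2, and 4 in that order). Adjusted p over all these ran between 0.0514 and 0.108.

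**Figure D3:**
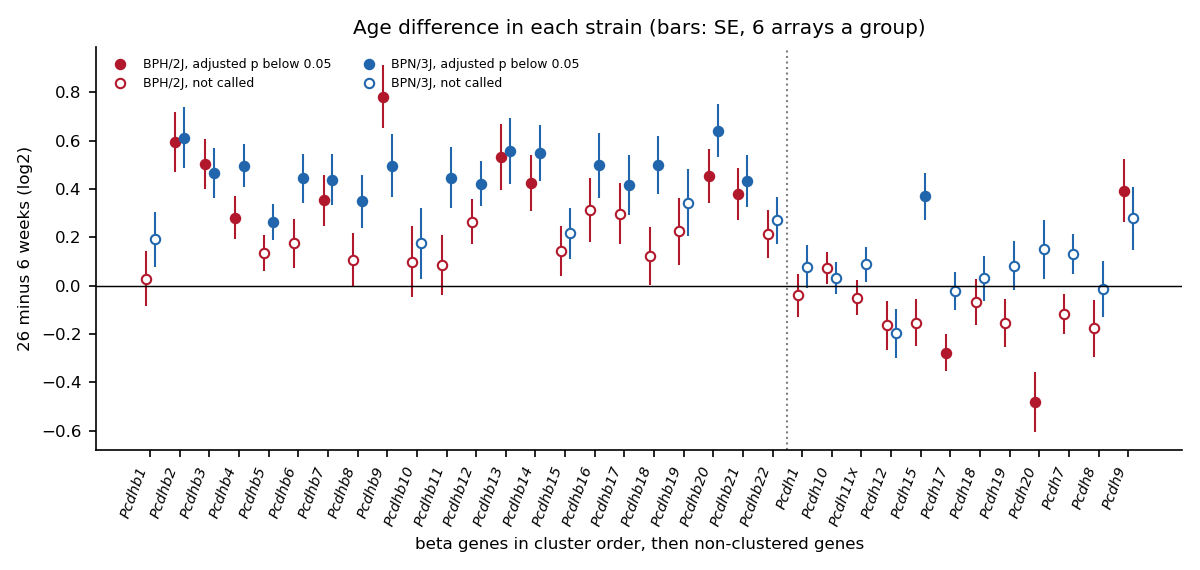
Age difference (26 minus 6 weeks, log2, vertical axis) of the 22 beta genes in cluster order and, right of the dotted line, the 12 non-clustered genes, in BPH/2J and BPN/3J mice, with bars for the SE of the limma fit (6 arrays per group) and filled points for an adjusted p below 0.05. All beta points lie above 0 in both strains, whereas the non-clustered points lie on both sides of it.

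The age result depended on which 26-week arrays entered. The mean over the 22 beta genes was 6.66 to 6.74 on the 26-week BPH/2J arrays 1 to 4 and 6.41 on both arrays 5 and 6, against 6.14 to 6.45 (median 6.31) on the 6-week BPH/2J arrays. In BPN/3J mice it was 6.83 to 7.07 on 26-week arrays 1 to 4 and 6.69 and 7.21 on arrays 5 and 6, against 6.37 to 6.62 (median 6.56) at 6 weeks. Without arrays 5 and 6, 15 beta genes were higher in BPH/2J and 19 in BPN/3J, with 39.3% and 33.6% of all genes called. With only arrays 5 and 6 at 26 weeks, 0 beta genes were called in BPH/2J (1.95% of all genes called; median 0.09) and 1 in BPN/3J (0.135% called; median 0.41). In BPH/2J 15 of the 16 thalamus markers were also higher at 26 weeks (median difference 1.16), and with their mean as a covariate 0 beta genes were called (0.0301% of all genes; beta median 0.09). The covariate left Pcdhb3 at 0.55, Pcdhb2 at 0.55, Pcdhb9 at 0.54 and Pcdhb20 at 0.27, none of them called (adjusted p = 0.395, 0.466, 0.463 and 0.693 in that order). Also in BPH/2J, 6 of 11 hypothalamus markers were lower and 3 of 5 cortex markers were higher at 26 weeks (medians -0.49 and 0.63). In BPN/3J 0 thalamus markers were called with age and the covariate kept all 17 beta calls. The mean of the thalamus list was on average 9.26 at 26 weeks and 9.24 at 6 weeks in BPN/3J, so the covariate could move this contrast little. The share of all genes called with it in BPN/3J is not given here. Other lists did differ with age in BPN/3J: 6 of 9 oligodendrocyte markers and 2 of 6 astrocyte markers were lower at 26 weeks (medians -0.50 and -0.20), and all 7 choroid plexus markers had positive differences, 1 of them called (median 0.96). Their part in the age result was not tested.

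**Figure D4:**
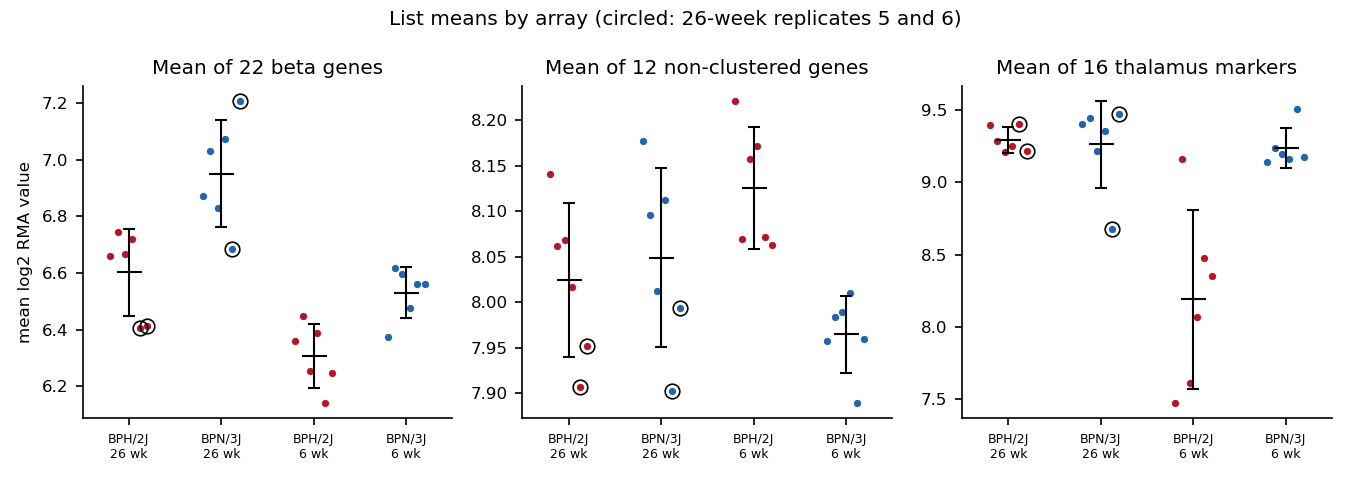
Mean log2 RMA value per array (vertical axes) of the 22 beta genes, the 12 non-clustered genes and the 16 thalamus markers in the 4 groups, with 1 point per array, bars for the mean and SD of 6 arrays, and circles around the 26-week arrays 5 and 6. Beta means are on average higher at 26 weeks than at 6 weeks and lower in BPH/2J than in BPN/3J, whereas the thalamus means are low in the 6-week BPH/2J mice, at 7.47 to 9.16.

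A direct test of whether the strain difference changes between the ages, equal to a test of whether the age difference changes with strain, found 0 of 22 beta genes (limma, adjusted p below 0.05; 0.0301% of all genes called). At an unadjusted p below 0.05 there was 1 of the 22, against 2160 of all 19937 genes. It was Pcdhb18 (-0.38 ± 0.17, adjusted p = 0.409), named after its value was seen. The median interaction of the beta genes was -0.12 log2 units, against 0.00 over all genes, and 20 of the 22 were negative. The larger count of age calls in BPN/3J than in BPH/2J is thus not shown to be a difference between the strains.

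Non-clustered protocadherins showed another pattern. At 6 weeks 3 of the 12, Pcdh17, Pcdh11x and Pcdh19, were higher in BPH/2J and 0 were lower, where 2.99% of all genes were higher and 4.42% lower, with a median difference of 0.23. At 26 weeks limma called 0 of the 12, with 2 at an unadjusted p below 0.05 (2488 of all 19937 genes) and a median of 0.05. Groups of the strains did not overlap for 4 non-clustered genes at 6 weeks, Pcdh11x, Pcdh15, Pcdh17 and Pcdh20, each higher in BPH/2J (2.66% of all genes), and for 0 at 26 weeks.

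The delta-2 genes Pcdh17 and Pcdh19 were among those called at 6 weeks, and their promoters are shown because these lie outside the cluster and can be set against promoters of the whole genome. Pcdh17, known for organising presynaptic sites in basal ganglia circuits, starts on the plus strand of chromosome 14 and Pcdh19, an X-linked gene whose loss causes epilepsy in human females, on the minus strand of chromosome X. The windows below run from 250 bases before to 50 after each start in RefSeq annotation of GRCm38.p6, at chr14:84443313-84443612 and chrX:133688944-133689243. They are written 5′ to 3′ on the gene's strand, and capitals mark the GC box, GGGCGG or its reverse CCGCCC.
Pcdh17: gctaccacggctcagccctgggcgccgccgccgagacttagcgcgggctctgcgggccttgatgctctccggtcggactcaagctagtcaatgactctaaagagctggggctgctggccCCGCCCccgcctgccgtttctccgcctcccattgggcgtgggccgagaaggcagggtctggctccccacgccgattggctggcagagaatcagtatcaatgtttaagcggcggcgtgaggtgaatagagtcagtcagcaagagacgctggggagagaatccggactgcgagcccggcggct
Pcdh19: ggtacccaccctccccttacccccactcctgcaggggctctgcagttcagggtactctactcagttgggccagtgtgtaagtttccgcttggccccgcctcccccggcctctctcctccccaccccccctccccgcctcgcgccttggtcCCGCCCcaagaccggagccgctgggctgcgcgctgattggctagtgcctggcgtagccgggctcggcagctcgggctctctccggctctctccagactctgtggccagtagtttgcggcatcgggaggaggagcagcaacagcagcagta
The Pcdh17 window was 65% G or C with 26 CpG sites and the Pcdh19 window 67.7% with 18, each above the median of 52.7% G or C over all promoters. Each held 1 GC box. Of the 9 non-clustered genes with a window in the table, 4 held a GC box, near the share over all promoters, where 35.7% of 32851 windows held one. They were Pcdh10, Pcdh17, Pcdh18 and Pcdh19, all of delta-2, whereas Pcdh8, also of delta-2, held 0. Of delta-1 only Pcdh7 and Pcdh9 had a window. The motif was searched on both strands, and a match describes the letters only.

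Pcdh17 read 9.73 to 10.08 (median 9.93) in 6-week BPH/2J mice, against 9.31 to 9.72 (median 9.55) in 6-week BPN/3J mice, without overlap. The difference was 0.39 ± 0.08 at 6 weeks (adjusted p = 0.00163). At 26 weeks it read 9.54 to 9.74 (median 9.62) in BPH/2J mice, against 9.35 to 9.74 (median 9.47) in BPN/3J mice, with overlap and no call (0.13 ± 0.08, adjusted p = 0.515). The young BPH/2J mice were the high group for this gene. Pcdh19 read 8.04 to 8.69 (median 8.48) in BPH/2J mice, against 7.90 to 8.37 (median 8.05) in BPN/3J mice at 6 weeks, with 2 low arrays among the BPH/2J mice. It differed by 0.34 ± 0.10 (adjusted p = 0.0387), a call that ended when any of 8 single 6-week arrays was left out, namely BPH/2J replicates 1, 3, 4 and 5 and BPN/3J replicates 1, 3, 5 and 6 (adjusted p 0.0564 to 0.118). Its 26-week difference was 0.10 ± 0.10 (adjusted p = 0.784).

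The other delta-2 genes were not called for strain. Pcdh18, which binds the adaptor Disabled-1, differed by 0.14 ± 0.09 at 26 weeks and 0.24 ± 0.09 at 6 weeks. Pcdh8, an activity-induced protein that takes part in removing cadherin from synapses, differed by 0.05 ± 0.12 and 0.21 ± 0.12 at those ages. Pcdh10, which guides growing axons in the forebrain, was the most even member, with group means of 9.37, 9.32, 9.29 and 9.29 in BPH/2J and BPN/3J mice at 26 weeks and BPH/2J and BPN/3J mice at 6 weeks.

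Among delta-1 genes Pcdh11x, an X-linked gene of brain, was higher in young BPH/2J mice. It read 9.29 to 9.56 (median 9.46) in BPH/2J mice, against 9.03 to 9.22 (median 9.11) in BPN/3J mice at 6 weeks, without overlap (0.33 ± 0.07, adjusted p = 0.00396). At 26 weeks it read 9.14 to 9.52 (median 9.47) in BPH/2J mice, against 9.07 to 9.35 (median 9.21) in BPN/3J mice, and was not called (0.19 ± 0.07, adjusted p = 0.208). The strains overlapped at this age through 2 lower BPH/2J arrays. Pcdh9 differed by -0.18 ± 0.13 at 26 weeks and -0.29 ± 0.13 at 6 weeks (adjusted p = 0.647 and 0.216). Its second probe set differed by -0.36 ± 0.10 at 6 weeks, called lower over all 34760 probe sets (adjusted p = 0.0462). Pcdh7, which binds protein phosphatase 1, and Pcdh1 differed by -0.16 ± 0.08 and -0.16 ± 0.09 at 26 weeks and by 0.09 ± 0.08 and -0.04 ± 0.09 at 6 weeks, with no call.

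The remaining 3 genes were not called for strain. Pcdh15, part of the tip link of hair cells in the inner ear, read 6.33 to 6.82 (median 6.70) against 6.66 to 7.37 (median 6.82) in BPH/2J and BPN/3J mice at 26 weeks, and 6.67 to 6.999 (median 6.74) against 6.45 to 6.57 (median 6.52) at 6 weeks, in the same order. The strains overlapped in adults and did not overlap in young mice. Pcdh15 differed by -0.27 ± 0.10 at 26 weeks and 0.26 ± 0.10 at 6 weeks (adjusted p = 0.19 and 0.121). Its second probe set differed by only -0.06 ± 0.11 and 0.08 ± 0.11 at these ages, with an interaction of -0.14 ± 0.16. None of these was called over all 34760 probe sets (limma, adjusted p = 0.907, 0.85 and 0.838 in that order), so the pattern of Pcdh15 rests on 1 of its 2 probe sets. Pcdh20 differed by -0.25 ± 0.12 at 26 weeks and 0.38 ± 0.12 at 6 weeks (adjusted p = 0.415 and 0.0593). Both genes had differences of opposite sign at the 2 ages, with interactions of -0.52 ± 0.14 and -0.63 ± 0.17 that did not pass (adjusted p = 0.0935 and 0.115). Limma called 0 of the 12 non-clustered genes for the interaction, with 4 at an unadjusted p below 0.05 (2160 of all 19937 genes). Leaving out BPH/2J replicate 2 at 6 weeks brought both past the threshold (adjusted p = 0.0391 for Pcdh15 and 0.0463 for Pcdh20). Pcdh12, known from vascular endothelium, differed by 0.05 ± 0.10 and 0.02 ± 0.10 at 26 and 6 weeks.

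**Figure D5:**
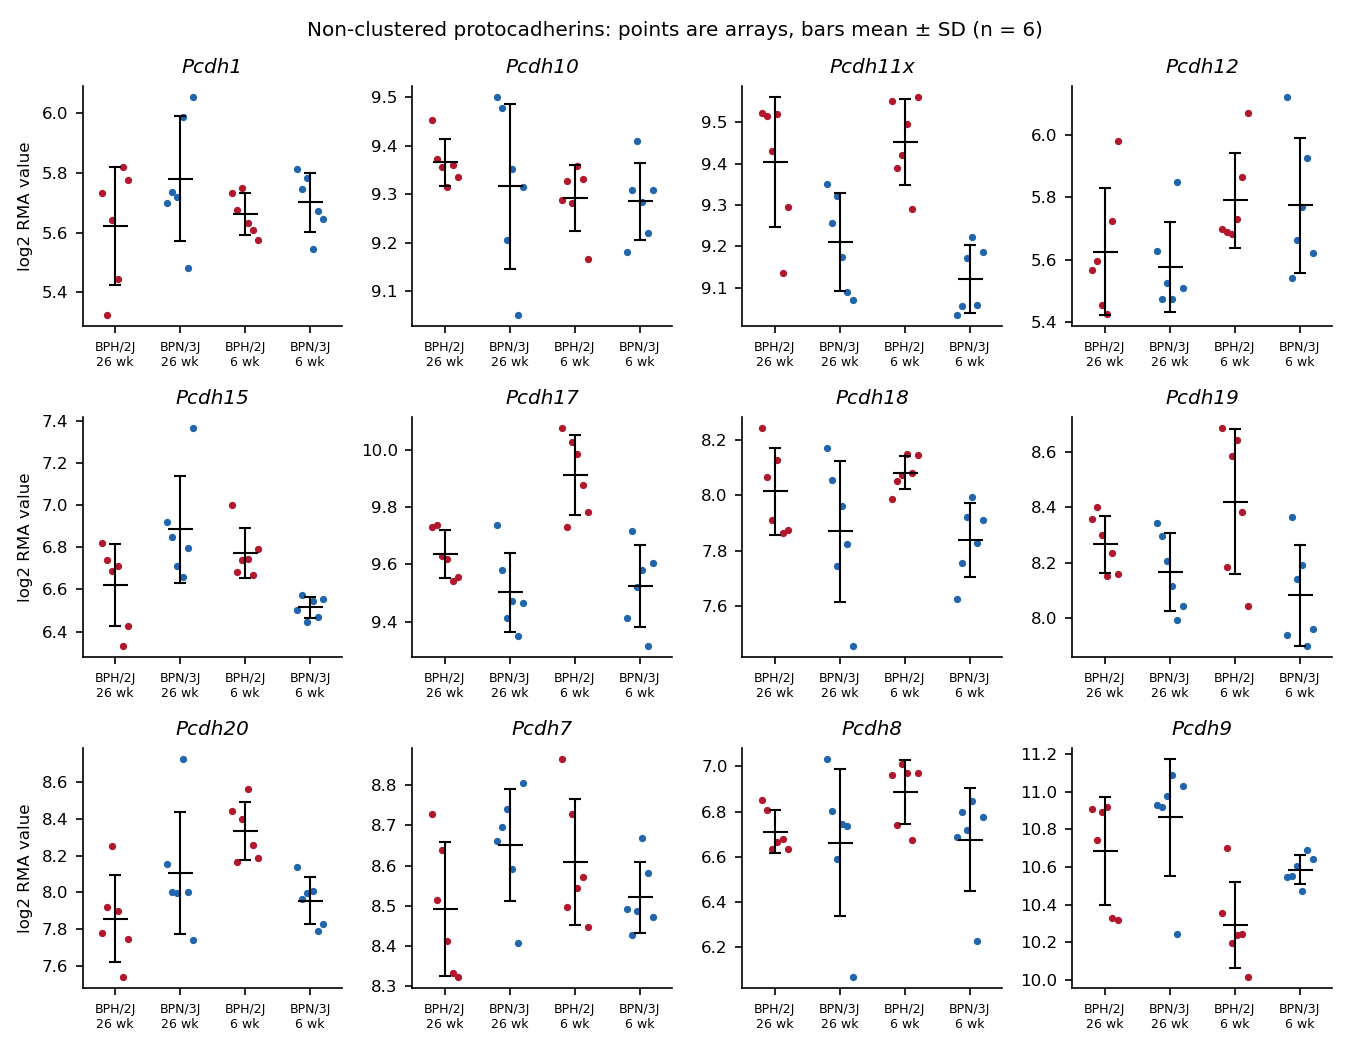
RMA values (log2, vertical axes) of the 12 non-clustered protocadherins by group, with 1 point per array and bars for the mean and SD of 6 arrays. Pcdh17, Pcdh11x and Pcdh19 are on average highest in the 6-week BPH/2J mice, and the strains overlap at 26 weeks for each of the 12 genes.

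With age, non-clustered genes were called in both directions. In BPH/2J mice Pcdh9 was higher and Pcdh20 and Pcdh17 were lower at 26 weeks, where 8.23% of all genes were higher and 8.64% lower, and the median of the 12 differences was -0.14. In BPN/3J mice Pcdh15 alone was called, higher at 26 weeks, which is 1 of 12 where 12.3% of all genes were called, and the median was 0.08. Pcdh20 read 7.54 to 8.25 (median 7.84) at 26 weeks and 8.16 to 8.56 (median 8.33) at 6 weeks in BPH/2J mice, with 1 adult array inside the young range (-0.48 ± 0.12, adjusted p = 0.00934). Pcdh17 differed by -0.28 ± 0.08 (adjusted p = 0.0145) and overlapped only between 9.73 and 9.74. Pcdh9 read 10.32 to 10.92 (median 10.82) at 26 weeks and 10.01 to 10.70 (median 10.24) at 6 weeks in BPH/2J mice, and its adult arrays formed a higher set of 4 and a lower pair. The higher call of Pcdh9 (0.39 ± 0.13, adjusted p = 0.0392) ended when any of 9 single BPH/2J arrays was left out, replicates 1 to 4 at 26 weeks and 1, 3, 4, 5 and 6 at 6 weeks (adjusted p 0.0553 to 0.104). Without the 26-week arrays 1 to 4 it was 0.03. The second probe set of Pcdh9 was higher by 0.30 ± 0.10 with age in BPH/2J. Over all 34760 probe sets 0.39 for the first and 0.30 for the second were not called (limma, adjusted p = 0.0679 and 0.0615).

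Pcdh15 was higher by 0.37 ± 0.10 in adult BPN/3J mice (adjusted p = 0.0173), with 26-week arrays at 6.66 to 7.37 and 6-week arrays at 6.45 to 6.57. The groups did not overlap, and 1 adult array, replicate 6, lay far above the rest. Its second probe set gave -0.01 ± 0.11 (adjusted p = 0.977 over 34760 probe sets), so the 2 probe sets of this gene disagreed. With the mean of both, the difference was 0.18 and was not called (adjusted p = 0.134).

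Tissue markers differed between the strains at 6 weeks, when the 3 non-clustered genes were called. Hypothalamus markers leaned the same way at 26 weeks, when 0 non-clustered genes were called. At 6 weeks 6 of the 11 hypothalamus markers were higher in BPH/2J (median difference 0.70), and their mean was 8.31 to 9.16 (median 8.93) in BPH/2J mice, against 7.47 to 8.37 (median 8.15) in BPN/3J mice. At 26 weeks 2 of the 11 were called higher in BPH/2J, 9 of the 11 differences were positive and the median difference was 0.41. The list mean was then 7.74 to 8.53 (median 8.31) in BPH/2J mice, against 7.31 to 8.26 (median 7.61) in BPN/3J mice. With the thalamus marker mean as a covariate 0 non-clustered genes were called for strain at 6 weeks and 0 for age in BPH/2J (0.792% and 0.0301% of all genes called). The strain differences with the covariate were 0.28 for Pcdh11x, 0.25 for Pcdh17 and 0.12 for Pcdh19. The age differences in BPH/2J were -0.28 for Pcdh20, -0.14 for Pcdh17 and 0.04 for Pcdh9. Across the 24 arrays, after the group means were taken out, the mean of the non-clustered genes had r = 0.519 with the hypothalamus list and -0.16 with the thalamus list, and the mean of the beta genes had r = -0.075 and 0.304 with them. The part of tissue makeup in these results was not tested.

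Beta genes also varied together among mice of a group. For deviations from group means over 24 arrays, the median r over the 231 pairs of beta genes was 0.444, and 222 pairs were positive. The 66 pairs of non-clustered genes had a median r of 0.222, with 46 positive, and the 264 pairs of a beta and a non-clustered gene had a median of 0.196, with 187 positive. The beta median was 0.548 over the 12 arrays of 26 weeks and 0.346 over the 12 arrays of 6 weeks, with 224 and 190 of the pairs positive. These pairs share arrays and, within the beta cluster, sequence, and the values are descriptions.

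The probe set that carries 14 alpha symbols read 6.68 to 7.31 over the 24 arrays and was not called in any comparison over all 34760 probe sets. Its strain difference was -0.09 ± 0.09 at 26 weeks and -0.16 ± 0.09 at 6 weeks. Its age difference was 0.12 in BPH/2J and 0.06 in BPN/3J. Genes around the clusters were measured as well. Of the 10 measured genes nearest on each side, 18 were no protocadherin, and limma called 0 of them for strain at either age. At an unadjusted p below 0.05 there were 2 at 26 weeks and 1 at 6 weeks (2488 and 3617 of all 19937 genes). Differences of the 18 ran between -0.57 and 0.20 at 26 weeks and between -0.28 and 0.20 at 6 weeks. With age, 2 of the 18 were higher and 2 lower in BPH/2J (22.2%, where 16.9% of all genes were called). In BPN/3J 1 was higher and 1 lower (11.1%), near the share of all genes (12.3% called). Tmco6 was lower in BPH/2J (-0.32) and in BPN/3J (-0.39). Fchsd1 was lower (-0.34) and Ndufa2 and Hars were higher (0.32 and 0.27) in BPH/2J, and Diaph1, the neighbour next to the gamma cluster, was higher in BPN/3J (0.29).

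Genes that act on the clusters were measured beside them. Of 13 regulators, which included Ctcf, the cohesin genes Rad21, Smc1a, Smc3, Stag1 and Stag2, the cohesin loader Nipbl, the silencing factors Smchd1, Setdb1 and Trim28 and the DNA methyltransferases Dnmt3a and Dnmt3b, limma called 0 for strain. At an unadjusted p below 0.05 there were 0 at 26 weeks and 1 at 6 weeks, Trim28 (0.17 ± 0.06, adjusted p = 0.0881). Among all 19937 genes 2488 and 3617 reached that level at 26 and 6 weeks. With age, 2 of the 13 were lower in BPH/2J (15.4%), near the share of all genes (16.9% called). In BPN/3J 2 were higher and 1 was lower (23.1%, where 12.3% of all genes were called). Dnmt3a was lower by 0.29 in BPH/2J (adjusted p = 0.00861). Trim28, a co-repressor recruited by zinc finger proteins, was lower by 0.29 in BPH/2J and by 0.24 in BPN/3J (adjusted p = 0.00142 and 0.012). Stag1 and Nipbl were higher in adult BPN/3J mice, by 0.47 and 0.42 (adjusted p = 0.0155 and 0.0242).

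Of 16 signalling partners of protocadherins, 0 were called for strain by limma. At an unadjusted p below 0.05 there were 2 at 26 weeks and 5 at 6 weeks (2488 and 3617 of all 19937 genes). With age 4 of the 16 were higher in BPH/2J, where 16.9% of all genes were called: Ptk2b, a kinase of the focal adhesion family that clustered protocadherins inhibit (1.12 ± 0.26, adjusted p = 0.00421), Ppp1ca (0.29), and the actin regulators Wasf1 (0.36) and Abi1 (0.27). In BPN/3J 2 of the 16 were lower with age, a share near the 12.3% of all genes called there, the kinase Fyn (-0.26) and Ctnnb1, which encodes beta-catenin (-0.37). Of the 34 other cadherin genes, 0 were called for strain at 26 weeks by limma, with 8 at an unadjusted p below 0.05 (2488 of all 19937 genes). At 6 weeks, where 7.42% of all genes were called, 2 were higher in BPH/2J, Cdh22 (0.42) and Cdh1 (0.33), and 2 were lower, Cdh12 (-0.40) and Cdh7 (-0.36). Their median strain difference was -0.03 at 26 weeks and 0.01 at 6 weeks, against -0.42 and -0.21 for the beta protocadherins. With age, 6 cadherins were higher and 7 lower in BPH/2J (16.9% of all genes called), and 5 of the 34 were lower in BPN/3J, near the share of all genes (12.3% called).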

How the data were processed

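RNA from 24 hypothalamus samples was measured on 24 arrays. The deposited table holds log2 values. The submitters' processing notes name RMA and limma, with no versions given in the sources used here. RMA equalises the arrays' distributions, so a shift shared by most genes would not show. Of 34760 probe sets, 21640 carried 1 gene symbol, 1321 several and 11799 none. The single-symbol probe sets gave 19937 genes, the probe set with the highest mean standing for each gene. The 34 members all matched RefSeq (GRCm38.p6), with 0 symbols changed. Each sample's title gave its group and replicate number. BPN/3J is the labels' name for the control strain, which the series' design text writes once as BPN/2J.

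All 4 groups were fitted together with limma 3.58.1 in R 4.3.3 (20 residual degrees of freedom), with Benjamini-Hochberg adjustment over all genes within each of 5 contrasts and a threshold of 0.05. SD is over 6 arrays and SE is from the fit. No array was left out of the main values, and the number of arrays limits the precision. In each strain contrast up to 8 called beta genes and up to 8 other called members were described in full, smallest p first, and in each age contrast up to 4 of each. Members, classes and lists were chosen with earlier results of these data known. The fit was tested on simulated data.

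Same-numbered arrays of the strains deviated together at 26 weeks, with r between 0.13 and 0.44 in all 6 pairs, of which 3 correlated best with their own number, which meets the rule used here for pairing, although the arrays of replicates 5 and 6, which stand apart in both strains, enter these correlations and nothing else shows that the numbers pair mice. They did not do so in the other contrasts. No 2 arrays were duplicates. Alternatives were the compared groups alone, the replicate block, the mean of a gene's probe sets, a filter on dim genes, another normalization, a trended robust spread model, array weights, the thalamus marker mean as a covariate, and each array left out in turn. A few genes of the lists were not analysed here.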

Additional observations from a re-analysis of the deposited data

Results flagged for a closer look

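The 34 members and the means of the beta and non-clustered genes were tested in each group of 6 arrays. In 9 of these 144 groups 1 array lay far from the other 5 by Dixon's test, which by chance marks about 1 group in 20. Pcdhb20 read 6.79 on replicate 5 of the 26-week BPN/3J mice, where the next array read 7.31. Without that array the 26-week strain difference of Pcdhb20 was -0.43 and was called (adjusted p = 0.00367). Pcdhb20 also read 6.32 on replicate 6 of the 6-week BPH/2J mice, where the next array read 6.64. Pcdh9 read 10.25 on replicate 5 of the 26-week BPN/3J mice, where the next array read 10.92, and without it Pcdh9 was called higher with age in BPN/3J (0.40, adjusted p = 0.0136). Pcdh15 read 7.37 on replicate 6 of the 26-week BPN/3J mice, where the next array read 6.92, and 6.999 on replicate 1 of the 6-week BPH/2J mice, where the next array read 6.79. On the 26-week BPN/3J arrays Pcdhb13 also read 5.15 on replicate 5, where the next array read 5.97, and Pcdhb10 read 7.97 on replicate 6, where the next read 7.23. On the 6-week BPN/3J arrays Pcdh8 read 6.23 on replicate 5, where the next read 6.69, and Pcdhb17 read 6.25 on replicate 1, where the next read 6.55. Without that last array the age call of Pcdhb17 in BPN/3J was lost (0.35, adjusted p = 0.0833). Replicates 5 and 6 of the 26-week mice are among the 4 arrays that stood apart across all genes. Their part in these values was not tested.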

How the results depend on the processing

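The 31 named differences were recomputed under 35 alternatives each. Of 1085 values, 1023 kept their direction and side of the threshold, 62 kept the direction and lost the call, and 0 turned round; leaving out 1 array accounted for 744 of these values and 24 of the lost calls.

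Strain at 26 weeks gave 10 to 15 beta calls (median difference -0.48 to -0.35) and 0 non-clustered calls (-0.02 to 0.07) with 1 array left out. At 6 weeks these were 6 to 9 (-0.27 to -0.14) and 2 to 5 (0.18 to 0.26). With age in BPH/2J they were 7 to 11 (0.21 to 0.32) and 2 to 3 (-0.16 to -0.09), and in BPN/3J 12 to 19 (0.38 to 0.48) and 1 to 2 (0.03 to 0.12). The interaction gave 0 beta calls (-0.19 to -0.07) and 0 to 2 non-clustered calls, the 2 without BPH/2J replicate 2 of 6 weeks (2.49% of all genes called). The share of all genes called also moved in other such fits. It was 8.23% for strain at 6 weeks without BPN/3J replicate 6 of 26 weeks. For age in BPN/3J it was 21.2% without BPN/3J replicate 5 of 26 weeks.

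With the thalamus marker mean as a covariate, the 6-week strain contrast gave 1 beta call (median -0.0635) and 0 non-clustered calls (median 0.12), where 0.792% of all genes were called. Age in BPH/2J gave 0 beta calls (median 0.0861) and 0 non-clustered calls (0.0301% of all genes called), and the beta interaction median was -0.27. Some differences lost the call at a similar or larger size: for strain at 6 weeks Pcdhb2 was -0.60, Pcdhb3 -0.56, Pcdhb21 -0.56 and Pcdhb9 0.78, and for age in BPH/2J Pcdhb2 and Pcdhb3 were both 0.55. Array weights gave 7 non-clustered calls for strain at 6 weeks, 14 beta calls for age in BPH/2J, 2 non-clustered calls for age in BPN/3J and 2 for the interaction. The shares of all genes called with these weights were 18.7%, 37.5%, 32.2% and 3.43% in that order. Fitting only the groups compared gave 6 non-clustered calls for strain at 6 weeks, 5 higher and 1 lower, where 11.6% of all genes were called. Of these 6, 2 were among the 3 main calls, with Pcdh19 lost (adjusted p = 0.0712). The mean of all probe sets gave 0 non-clustered calls for age in BPN/3J (12.1% of all genes called).

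The replicate block gave 13 beta and 0 non-clustered calls for strain at 26 weeks, where the numbers met the correlation rule for pairing. Where arrays share only a number, the block gave 9 beta and 5 non-clustered calls for strain at 6 weeks (9.7% of all genes called). It gave 11 and 3 for age in BPH/2J, and 18 and 1 for age in BPN/3J. The share of all genes called with the block is given for strain at 6 weeks only, so its other counts cannot be set against such a share.

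A further 3 alternatives were chosen after seeing the data. Without the 26-week arrays 5 and 6, non-clustered calls were 7 for strain at 6 weeks and 2 for age in BPN/3J (12.3% and 33.6% of all genes called). The non-clustered median at 26 weeks was -0.0297, and 15 beta genes were called for age in BPH/2J (39.3% of all genes called). With a term for arrays 5 and 6, non-clustered calls were 5 for strain at 6 weeks, 1 at 26 weeks, 1 for the interaction and 4 for age in BPN/3J. The shares of all genes called with that term were 11%, 4.42%, 1.26% and 36.7% in that order. Without the 26-week arrays 1 to 4, strain at 26 weeks gave 4 beta calls and 1 non-clustered call (non-clustered median 0.14), age in BPH/2J gave 0 and 1 (medians 0.0942 and -0.23), age in BPN/3J gave 1 and 0 (non-clustered median -0.073), and the beta interaction median was -0.28. The shares of all genes called in these 3 contrasts of strain and age were 1.12%, 1.95% and 0.135%. This setting has 2 adult arrays per strain; the cause of the other changes was not tested. Signal near background limits Pcdhb1 and, in young BPN/3J mice, Pcdhb9.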
